A study of Mus musculus with 8 samples.

Results

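Lum, Crabp2, Dclk1, Ermn, Epor, Ltbp3 and Ybx3 are 7 of the 16308 genes in a count table of mouse Th17 and naive CD4 T cells. They were selected on read counts and taken by name, as genes near-silent in naive cells and switched on in Th17 cells. A further ground was that none is a usual Th17 marker. The contrast of Th17 over naive cells chose them, so their levels are given as a description, with no test. The rule named no numerical limit, and so no values just inside or outside it can be given.

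The Th17 group (2 libraries) was made from naive CD4 T cells of C57BL/6 mice cultured for 72 h. The medium held 0.1 ng/mL TGF-β with 20 ng/mL IL-6, and the stimulus was 0.25 µg/mL anti-CD3 plus 1 µg/mL anti-CD28. Another label gives a range of TGF-β doses, so the dose of a library is as its own label has it. The naive group (2 libraries) held untreated CD4 T cells of the same strain. The count headers mark all 4 libraries of the Th17 and naive groups as WT, and also carry the word Malat1. All libraries were ribosome-depleted RNA. Lists of RNA-edited sites covered these 4 libraries and, in a separate table, 2 DDX5-deficient and 2 wild-type Th17 libraries of the same strain, medium and time. DDX5 is an RNA helicase, and the labels, which call these cells DDX5∆T, give neither the Cre driver nor the allele. The series' design text calls the 2 libraries of a condition independent biological replicates, without saying whether they came from separate mice or cultures, and p-values measure the spread between these libraries.

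The 7 genes belong to different pathways, most of them better known outside T cells. Lumican is a small leucine-rich proteoglycan that spaces collagen fibrils in connective tissue. CRABP2 carries retinoic acid from the cytosol to its nuclear receptors. DCLK1 is a kinase with doublecortin domains that bind microtubules, known from neurons and tuft cells, and ermin is an actin-binding protein of myelinating oligodendrocytes. EPOR is the erythropoietin receptor, which signals through JAK2 and STAT5 in red cell precursors. LTBP3 ties latent TGF-β to the extracellular matrix, and YBX3 is a cold shock domain protein that binds DNA and RNA.

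Library depth was 26624436 and 11768994 reads on genes in Th17 cells, against 20426728 and 16154625 in naive cells. Values are given as CPM, the counts-per-megaread unit, on TMM-scaled library sizes. The 6 Th17 markers summed to 3979 and 3568 CPM in Th17 cells, led by Il17f and Il17a, and to 0.796 and 0.563 CPM in naive cells. The 7 CD4 T cell markers summed to 2871 and 2503 CPM in Th17 cells and to 5372 and 6135 CPM in naive cells, led in Th17 cells by Cd5 and Cd4. Th17 library 2 stood apart from library 1. It held 270 genes at 10 CPM or more that lay under 1 CPM in library 1, with a sum of 10715 CPM, and 0 genes went the other way. Kidney tubule markers, a list of 8 added after these values were seen, summed to 0.278 CPM in Th17 library 1 and 2043 CPM in Th17 library 2, against 0.318 and 0.775 CPM in the naive libraries. Of these, Kap had 0 and 988 CPM in Th17 libraries 1 and 2. The 7 endothelial markers summed to 27.5 and 186 CPM in the Th17 libraries, against 350 and 306 CPM in the naive libraries, where Pecam1 made up nearly all. Kdr had 0 CPM in Th17 library 1 and 104 CPM in Th17 library 2. In bulk RNA, fewer cells of a type and less RNA per cell cannot be told apart.

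Of the 7 genes, 7 passed the filter on low counts, Lum, Crabp2, Dclk1, Ermn, Epor and Ltbp3 through their Th17 reads alone or nearly so. In all 7, both Th17 libraries lay above both naive libraries, as 44.1% of the 11989 genes tested did, while 40.8% lay below in both. By edgeR's adjusted p 65.1% of the genes tested were called in either direction. Since this contrast chose the 7 genes, nothing is read from their count. The naive side of the label held unevenly. Lum, Crabp2, Dclk1 and Ermn had 0 reads in both naive libraries, whereas Epor had 3 naive reads in all and Ltbp3 had 7. Ybx3 had 333 naive reads and a naive level above that of 49.6% of all genes in the table, so the word near-silent does not describe it.

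**Figure D1:**
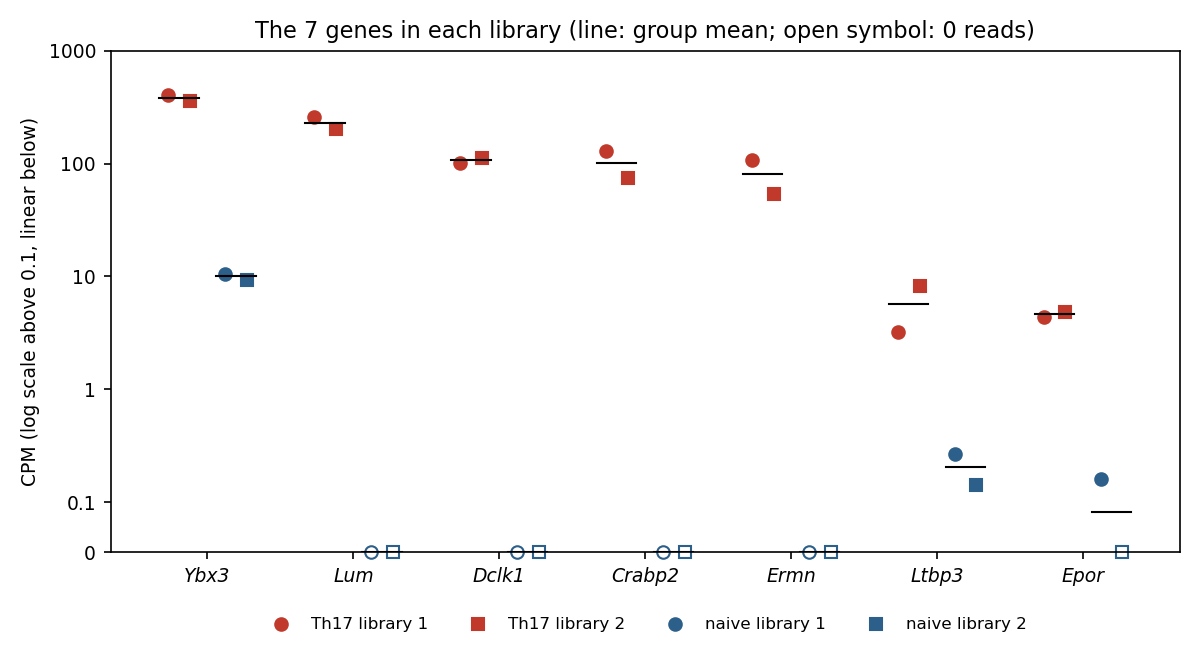
CPM of the 7 genes in each library, with Th17 libraries in red and naive libraries in blue, a line at each group mean and open symbols for 0 reads (the axis is logarithmic above 0.1 CPM and linear below). Both Th17 libraries lie above both naive libraries for each gene, and Ybx3 alone has a naive level near 10 CPM (9.99 ± 0.882 CPM, SD, n = 2).

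Lum had 257 and 203 CPM in the Th17 libraries, from 7396 and 2684 reads, against 0 CPM in both naive libraries. Its Th17 mean of 230 ± 37.6 CPM (SD, n = 2) was at least 1242-fold higher than 3 reads in each naive library would give. The gene lies on chromosome 10 at 97565128 to 97572703 (mm10). Among the 2854 genes of the table with 0 naive reads, Lum stood at rank 4 by mean Th17 CPM, after Il17a, Il22 and the uridine phosphorylase gene Upp1, and at rank 5 by library 1 alone. These ranks rest on the values that chose Lum and are a description.

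Fibroblasts are the usual source of lumican, and their markers differed sharply between the Th17 libraries. The 14 measured of 15 fibroblast markers summed to 35.3 CPM in Th17 library 1 and 2439 CPM in library 2, against 8.38 and 6.48 CPM in the naive libraries. They were led by the matrix genes Fn1, with 23.9 CPM in Th17 library 1 and 1187 CPM in Th17 library 2, and Sparc, with 0.0347 and 508 CPM. Of the 14, 5 had 0 reads in Th17 library 1. These included Col1a2 and Col3a1, chains of fibrillar collagens picked with their values in view. Lum was higher in Th17 library 1 than in library 2, and the part of fibroblasts in its level was not tested. Of 6 tested fibroblast markers 2 were called higher in Th17 cells, 4 without Th17 library 2 and 12 of those then tested without Th17 library 1. With either naive library left out 1 was called higher.

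The proteoglycan relatives of lumican lay below it. Of 11 listed, 7 were measured, and they summed to 2.78 and 18.0 CPM in Th17 cells and to 0.212 and 0.211 CPM in naive cells. Biglycan's gene Bgn made up most of the library 2 sum, with 0 CPM in Th17 library 1 and 11.3 CPM in Th17 library 2, and was picked with its values in view. Dcn, which encodes decorin, was the one relative tested and was called higher in Th17 cells, with 59 and 37 reads (2.05 and 2.80 CPM) against 0 and 0 naive reads, at least 13.1-fold higher. Its adjusted p was 3.3e-04 (edgeR quasi-likelihood F test, Benjamini-Hochberg). Over all genes that test called 34.3% higher and 30.7% lower. Dcn passed the filter on low counts through its Th17 reads alone, so only a higher call was open to it. Without Th17 library 1, 4 of these relatives were called higher. Dcn is also the gene next to Lum, 47.0 kb upstream on the same strand, and stands on the fibroblast list.

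Crabp2 had 128 and 74.2 CPM in the Th17 libraries, from 3702 and 979 reads, against 0 CPM in both naive libraries. The Th17 mean of 101 ± 38.4 CPM (SD, n = 2) was at least 547-fold higher than 3 reads per naive library would give. Library 1 was 1.73 times library 2, with a counting interval of 1.61 to 1.86. On the log2 scale a larger gap between the Th17 libraries was found in 9.05% of the genes tested. Crabp2 lies on chromosome 3 at 87948666 to 87953376 (mm10). The 8 epithelial markers, cells in which CRABP2 is also known, summed to 1.25 and 57.0 CPM in the Th17 libraries and to 6.16 and 5.84 CPM in the naive libraries. They were led in library 2 by the keratin gene Krt8 at 0.0347 and 46.4 CPM, followed by Cdh1 at 0.0694 and 5.46 CPM. The 3 tested, Cdh1, Cldn4 and Epcam, were not called at an adjusted p of 0.12 to 0.91 in edgeR's test, whereas 3 markers were called lower without Th17 library 2 and 3 higher without Th17 library 1. The library with more Crabp2 was the one with fewer epithelial reads, and the part of such cells in its level was not tested.

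Genes that handle retinoic acid moved with opposite signs. Of 19 listed, 17 were measured and 10 tested, and 5 were called higher and 3 lower in Th17 cells. Cyp26b1, which encodes an enzyme that breaks down retinoic acid, had 5.86 and 5.61 CPM in Th17 cells against 0 reads in naive cells, at least 31.0-fold higher. Stra6, the receptor for the retinol carrier, rose by a log2 of 5.86 (SE 0.50) with 10.3 and 7.96 CPM in Th17 cells and 0.159 and 0.141 CPM in naive cells. Fabp5, a fatty acid binding protein that also carries retinoic acid, had 170 and 132 CPM in Th17 cells and 3.71 and 4.58 CPM in naive cells, a log2 fold change of 5.19 (SE 0.22). The adjusted p of these 3 genes ran from 3.1e-07 to 4.6e-05 (edgeR quasi-likelihood F test, Benjamini-Hochberg).

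The nuclear receptors that retinoic acid acts on were split. Rxra, picked with its values in view, rose by a log2 of 1.01 (SE 0.15), whereas Rarg, Rxrb and Rara, picked likewise, changed by -1.02 (SE 0.15), -0.82 (SE 0.15) and -0.44 (SE 0.16). Leaving out Th17 library 2 ended the Rara call, at an adjusted p of 0.090 in edgeR's test, and it was also lost without Th17 library 1 or naive library 2. Without Th17 library 2 the list's counts were 4 higher and 2 lower. The 10 tested genes had a median log2 fold change of 1.59, beside 0.06 over all genes tested.

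Dclk1 had 102 and 112 CPM in the Th17 libraries, from 2934 and 1481 reads, against 0 CPM in both naive libraries. Its Th17 mean of 107 ± 7.38 CPM (SD, n = 2) was at least 578-fold higher than 3 reads per naive library would give. The Th17 libraries differed little here, with library 1 at 0.907 times library 2 and a counting interval of 0.852 to 0.966. The gene spans chromosome 3 from 55242364 to 55539068 (mm10), and reads were counted over the whole gene, so transcripts from its different starts cannot be told apart.

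RefSeq lists promoters at 2 starts of Dclk1, 219 kb apart. The downstream promoter is shown because it holds 2 matches, in capitals, to TGANTCA, a loose AP-1 pattern in which N was any base. They are TGAGTCA at -59 to -53 and TGATTCA at -20 to -14 from the start site (no base 0). The window is chr3:55461478-55461777 on the plus strand (GRCm38.p6).
Dclk1 downstream promoter: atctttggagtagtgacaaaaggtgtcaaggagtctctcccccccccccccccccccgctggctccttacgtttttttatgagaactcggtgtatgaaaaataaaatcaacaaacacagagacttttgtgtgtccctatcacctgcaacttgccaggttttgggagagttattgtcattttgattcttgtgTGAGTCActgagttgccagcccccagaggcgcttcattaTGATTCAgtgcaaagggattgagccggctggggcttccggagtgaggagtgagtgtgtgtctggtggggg

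The 9 neuron markers summed to 23.8 and 93.8 CPM in the Th17 libraries and to 2.55 and 2.68 CPM in the naive libraries, led by Tubb3 at 1.77 and 59.4 CPM and the synapsin gene Syn1 at 17.7 and 20.3 CPM in Th17 cells. Of 4 tested, 3 were called higher in Th17 cells, Syn1, Snap25 and Map2, and the count was again 3 without Th17 library 2 and 6 without Th17 library 1. With either naive library left out it was 2, and Map2 lost its call at an adjusted p of 0.19 and 0.23 in edgeR's test. Of the tuft cell list 2 of 8 were measured, Avil and Il17rb, with sums of 3.54 and 2.35 CPM in Th17 cells and 2.33 and 1.90 CPM in naive cells. The part of other cells in the Dclk1 level was not tested.

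Of 18 genes of the doublecortin family and microtubule-associated proteins, 15 were measured and 14 tested, and 9 were called higher and 2 lower in Th17 cells. Without Th17 library 2 the counts were again 9 and 2, but with either naive library left out they were 4 and 0. Map1b, which encodes a microtubule-associated protein best known from neurons, had 8.12 and 17.0 CPM in Th17 cells and 0.106 and 0.0704 CPM in naive cells. Mapt, which encodes tau, had 1.04 and 10.6 CPM in Th17 cells and 0.0531 and 0 CPM in naive cells, with the higher value in library 2. Map1a had 0.624 and 2.73 CPM in Th17 cells and 0.106 and 0 CPM in naive cells. Dcdc2a, another doublecortin gene, had 21 and 15 reads in Th17 cells and 0 in naive cells, at least 5.04-fold higher. The adjusted p of these 4 genes ran from 1.5e-05 to 0.031 (edgeR quasi-likelihood F test, Benjamini-Hochberg). With either naive library left out Map1b kept its call, whereas Mapt, Map1a and Dcdc2a had an adjusted p of 0.082 to 0.19 in the same test. The closest relative, Dclk2, was not called, with 368 and 177 reads in Th17 cells and 226 and 114 reads in naive cells, and was picked with its values in view. The list's median log2 fold change was 1.71.

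Ermn had 107 and 54.2 CPM in the Th17 libraries, from 3080 and 715 reads, against 0 CPM in both naive libraries. The Th17 mean of 80.5 ± 37.2 CPM (SD, n = 2) was at least 435-fold higher than 3 reads per naive library would give. Library 1 was 1.97 times library 2, with a counting interval of 1.82 to 2.14, and 7.05% of the genes tested had a larger log2 gap. Ermn lies on the minus strand of chromosome 2 at 58045113 to 58052864 (mm10). It shares 237 exon bases with Galnt5 on the other strand, and Galnt5 had 2 and 0 reads in Th17 cells and 0 and 2 reads in naive cells.

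The Ermn promoter is shown for its octamer motif, ATGCAAAT, the sequence bound by POU-domain factors, at -118 to -111 and in capitals. The window is chr2:58052815-58053114 on the minus strand (GRCm38.p6).
Ermn promoter: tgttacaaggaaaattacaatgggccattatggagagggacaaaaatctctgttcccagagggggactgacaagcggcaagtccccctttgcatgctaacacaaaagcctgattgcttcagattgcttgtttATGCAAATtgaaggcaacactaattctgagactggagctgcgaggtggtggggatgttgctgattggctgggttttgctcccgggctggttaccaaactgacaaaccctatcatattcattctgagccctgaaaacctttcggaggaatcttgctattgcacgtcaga

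Oligodendrocyte markers were summed beside Ermn. The 7 measured of 11 summed to 181 and 180 CPM in Th17 cells and to 685 and 741 CPM in naive cells, nearly all of it Cnp and Mbp, which T cells also express. Mag, Mobp and Olig2, defining markers picked with their values in view, had from 0 to 7 reads in any library. Ugt8a, an enzyme gene of myelin lipid synthesis likewise picked with its values in view, had 0 and 81 reads in Th17 libraries 1 and 2 and 0 reads in naive cells, and was not tested. All 3 tested markers, Mbp and Cnp among them, were called lower in Th17 cells, and without Th17 library 1 the counts were 1 higher and 3 lower. With either naive library left out 2 were called lower.

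The ERM list, for ezrin, radixin, moesin and the membrane proteins they tie to actin, was split evenly. All 10 were tested, with 5 called higher and 5 lower in Th17 cells, and 4 and 4 without Th17 library 2. With either naive library left out the counts were 3 and 4. Pdpn, which encodes the membrane glycoprotein podoplanin, had 101 and 56.2 CPM in Th17 cells against 0 reads in naive cells, at least 424-fold higher. Cd44, the hyaluronan receptor of activated T cells, had 532 and 467 CPM in Th17 cells and 14.8 and 16.8 CPM in naive cells. Slc9a3r2, a scaffold protein gene, had 18 and 37 reads in Th17 cells and 1 and 0 reads in naive cells, a log2 fold change of 5.51 (SE 1.26). Its call was lost with either naive library left out, at an adjusted p of 0.11 and 0.15 in edgeR's test. Selplg, the selectin ligand PSGL-1, changed by -1.77 (SE 0.18). The adjusted p of these 4 genes ran from 2.0e-07 to 0.0051 (edgeR quasi-likelihood F test, Benjamini-Hochberg). Moesin's gene Msn and ezrin's gene Ezr, picked with their values in view, changed by -1.42 and -0.49 in log2, and the Ezr call was lost when Th17 library 2 or a naive library was left out, at an adjusted p of 0.090 to 0.33 in edgeR's test. The list's median log2 fold change was -0.04.

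Epor had 4.41 and 4.85 CPM in the Th17 libraries, from 127 and 64 reads, against 0.159 and 0 CPM in naive cells, from 3 and 0 reads. The depth-scaled ratio of summed reads was 50.1, with an exact counting interval of 16.9 to 245. Both Th17 libraries were alike within counting error, at a ratio of 0.908 with an interval of 0.668 to 1.25. The authors' deposited table gives a log2 fold change of 6.12. Epor lies on the minus strand of chromosome 9 at 21958897 to 21963506 (mm10).

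Its promoter is shown because the compact region before the start holds a GATA motif, AGATAA read on the other strand, at -54 to -49 and a GC box, CCCGCCC, at -27 to -21. Both are in capitals. GATA1 and Sp1 are known to act on this promoter in red cell precursors. The window is chr9:21963527-21963826 on the minus strand (GRCm38.p6).
Epor promoter: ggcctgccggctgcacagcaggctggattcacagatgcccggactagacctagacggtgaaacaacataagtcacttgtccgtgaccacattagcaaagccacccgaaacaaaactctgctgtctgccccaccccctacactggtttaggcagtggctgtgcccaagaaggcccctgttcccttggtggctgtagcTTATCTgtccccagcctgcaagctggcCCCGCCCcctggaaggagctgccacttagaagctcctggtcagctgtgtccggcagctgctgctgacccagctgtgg

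The 12 erythroid markers summed to 1.01 and 11.8 CPM in Th17 cells and to 30.8 and 18.7 CPM in naive cells. In Th17 library 1, 9 of the 12 had 0 reads. Gata1 was the 1 tested member called, lower in Th17 cells at 0.451 and 0.606 CPM against 14.3 and 9.22 CPM in naive cells, and was likewise picked with its values in view. Without Th17 library 2, 0 erythroid markers were called higher and 8 lower by edgeR, and without Th17 library 1 the counts were 1 and 2. The markers with the highest Th17 means were Hbb-bs and Slc4a1, at 0 and 5.30 CPM and at 0 and 2.80 CPM.

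Of 17 genes of erythropoietin receptor signalling and related receptors, 16 were measured and 13 tested, and 6 were called higher and 2 lower in Th17 cells. The feedback inhibitor genes Socs2 and Cish, targets of STAT5, had log2 fold changes of 6.44 (SE 0.38) and 3.92 (SE 0.20). Cish had 468 and 383 CPM in Th17 cells and 30.7 and 25.3 CPM in naive cells. Stat5a had 539 and 446 CPM in Th17 cells and 126 and 121 CPM in naive cells. Socs1 rose by 1.84 (SE 0.38). The adjusted p of these 4 genes ran from 7.0e-07 to 0.014 (edgeR quasi-likelihood F test, Benjamini-Hochberg). Jak2, the kinase bound to the receptor, rose by 1.67 (SE 0.20) and was picked with its values in view. These genes also serve the interleukin receptors of T cells. Epo itself was the 1 listed gene absent from the count table, so its level cannot be given. Without Th17 library 2 the counts were 6 and 1, and without naive library 1 or 2 they were 5 and 0 or 5 and 1. The list's median log2 fold change was 0.35.

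Ltbp3 had 3.19 and 8.26 CPM in the Th17 libraries, from 92 and 109 reads, against 0.265 and 0.141 CPM in naive cells, from 5 and 2 reads. The fitted log2 fold change was 4.73 (SE 0.70), beside 4.66 in the authors' deposited table. Th17 library 1 was 0.386 times library 2, with a counting interval of 0.290 to 0.515, and 4.91% of the genes tested had a larger log2 gap. Of the 7 genes Ltbp3 had the largest excess in library 2, the library with more fibroblast and kidney tubule marker reads, and their part in its level was not tested. In library 1 alone it lay at 3.19 CPM. The gene lies on chromosome 19 at 5740904 to 5758532 (mm10). Part of its exons overlaps exons on the other strand, and without a stated use of strand the origin of reads there cannot be told apart.

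The Ltbp3 promoter is shown because an AP-1 motif, TGAGTCA, lies across the start site, from -6 to 1. The window is chr19:5740650-5740949 on the plus strand (GRCm38.p6).
Ltbp3 promoter: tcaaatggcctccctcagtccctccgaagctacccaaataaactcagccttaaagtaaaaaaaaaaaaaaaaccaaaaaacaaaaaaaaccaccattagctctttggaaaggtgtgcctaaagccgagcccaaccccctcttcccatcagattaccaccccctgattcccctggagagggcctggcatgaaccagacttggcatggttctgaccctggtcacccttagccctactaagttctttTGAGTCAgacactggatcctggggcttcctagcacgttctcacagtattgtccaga

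Of 15 genes that store and release latent TGF-β, 15 were measured and 9 tested, with 7 called higher in Th17 cells and 1 lower, beside 34.3% and 30.7% of all genes tested. The counts were again 7 and 1 without Th17 library 2, and 6 and 1 with either naive library left out. The median log2 fold change was 4.41. Itgb8, whose integrin frees active TGF-β, rose by a log2 of 6.90 (SE 0.53), and Lrrc32, which encodes the membrane anchor GARP, had 6.38 and 11.2 CPM in Th17 cells and 0.106 and 0.0704 CPM in naive cells. The ligand gene Tgfb2 rose by 4.84 (SE 0.77), with 5.31 and 7.80 CPM in Th17 cells and 0.0531 and 0.422 CPM in naive cells. Ltbp4, a relative of Ltbp3, had 1.32 and 7.27 CPM in Th17 cells and 0.265 and 0.0704 CPM in naive cells. The adjusted p of these 4 genes ran from 1.5e-05 to 0.012 (edgeR quasi-likelihood F test, Benjamini-Hochberg). Ltbp4 lost its call with either naive library left out, at an adjusted p of 0.12 and 0.18 in the same test. Furin, the protease that cuts the TGF-β precursor, had 1577 and 1302 CPM in Th17 cells and 72.1 and 63.4 CPM in naive cells, and was picked with its values in view. Nrros, an anchor of latent TGF-β in myeloid cells, was the member called lower, at -2.25 (SE 0.21), and was picked with its values in view. Of the other ligand genes, likewise picked, Tgfb1 had the higher level and was not called, at an adjusted p of 0.10 in edgeR's test. It had 214 and 189 CPM in Th17 cells and 139 and 177 CPM in naive cells. Tgfb3 was called higher, with 17.8 and 17.6 CPM in Th17 cells and 0.796 and 0.915 CPM in naive cells.

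The other latent TGF-β binding proteins and the fibrillins lay almost wholly in Th17 library 2. Ltbp1 had 0.139 and 9.47 CPM, Ltbp2 0.382 and 9.47 CPM and the fibrillin gene Fbn1 0.139 and 81.9 CPM in Th17 libraries 1 and 2, all picked with their values in view and none tested. Without Th17 library 1, 13 members of the list were called higher.

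Ybx3 had 407 and 358 CPM in the Th17 libraries, from 11733 and 4720 reads, against 10.6 and 9.36 CPM in naive cells, from 200 and 133 reads. The Th17 mean was 382 ± 34.9 CPM and the naive mean 9.99 ± 0.882 CPM (SD, n = 2 each). The fitted log2 fold change was 5.26 (SE 0.19), beside 5.28 in the authors' deposited table. Library 1 was 1.14 times library 2, with a counting interval of 1.10 to 1.177. Ybx3 lies on the minus strand of chromosome 6 at 131364855 to 131388476 (mm10).

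The Ybx3 promoter is shown for its CpG content, with 2 GC boxes in capitals at -43 to -37 and -24 to -18. Its ratio of observed to expected CpG was 0.964, above that of 92.0% of the 32851 promoters in the RefSeq table. The window is chr6:131388401-131388700 on the minus strand (GRCm38.p6).
Ybx3 promoter: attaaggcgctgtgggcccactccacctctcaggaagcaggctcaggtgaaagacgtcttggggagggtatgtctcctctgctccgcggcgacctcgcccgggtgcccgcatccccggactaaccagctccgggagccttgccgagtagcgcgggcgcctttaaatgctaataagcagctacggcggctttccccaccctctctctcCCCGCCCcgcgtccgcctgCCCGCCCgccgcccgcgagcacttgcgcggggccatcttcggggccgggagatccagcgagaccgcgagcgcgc

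Of 11 cold shock domain genes and tight junction partners of YBX3, 10 were measured and 7 tested, and 4 were called higher and 1 lower in Th17 cells. Carhsp1, a small cold shock domain protein gene, rose by a log2 of 2.65 (SE 0.17). Ybx1, the family member studied most, rose by 1.49 (SE 0.22), with 869 and 998 CPM in Th17 cells and 275 and 389 CPM in naive cells. Tjp3, for a junction protein, changed by -1.67 (SE 0.31), and lost its call without naive library 1 at an adjusted p of 0.065 in edgeR's test. The adjusted p of these 3 genes ran from 2.4e-06 to 0.0013 (edgeR quasi-likelihood F test, Benjamini-Hochberg). Tjp1, which encodes the YBX3-binding protein ZO-1, had 4.41 and 39.5 CPM in Th17 cells and 0.212 and 0 CPM in naive cells, was not called, and was picked with its values in view. It was called without Th17 library 1 or without Th17 library 2. Without Th17 library 2 the counts were 5 higher and 1 lower. The list's median log2 fold change was 1.49.

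**Figure D2:**
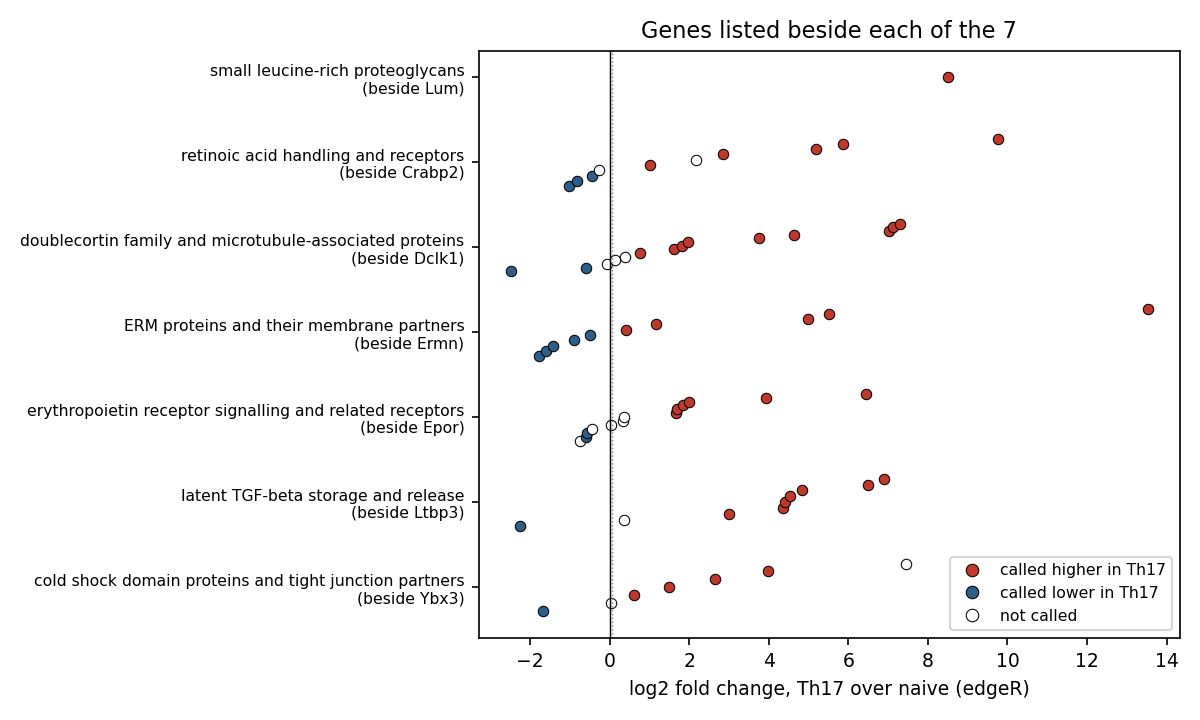
Log2 fold change, Th17 relative to naive, for the tested genes of the 7 lists, with red points called higher, blue points called lower and white points not called at an adjusted p under 0.05 by edgeR, and a dotted line at the median of all tested genes (0.06). Over the lists 37 of 64 tested genes were called higher and 14 lower, and the ERM list is the one split 5 and 5.

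Over all 7 lists, 37 of 64 tested genes were called higher in Th17 cells (57.8%, beside 34.3% of all genes) and 14 lower (21.9%, beside 30.7%). The median log2 fold change was 1.64, beside 0.06. Without Th17 library 2 the counts were 36 higher and 11 lower, and without a naive library they were 26 higher and 8 or 9 lower. Dcn, Cyp26b1, Dcdc2a and Pdpn, each with 0 naive reads, passed the filter on low counts through their Th17 reads alone. For such genes only a higher call was open, in the lists as among all genes tested. Nothing is therefore read from the share called higher. The lists were chosen with earlier results of these data known.

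Levels between the 7 genes can be compared only per length, as TPM over the exon length of the GENCODE annotation. In Th17 cells Ybx3 averaged 471 ± 34.1 TPM, Lum 356 ± 51.5, Crabp2 289 ± 104, Ermn 83.6 ± 37.2, Dclk1 26.5 ± 2.33, Epor 8.82 ± 0.765 and Ltbp3 2.41 ± 1.54 TPM (SD, n = 2). Lum at 391.95 and 319 TPM and Crabp2 at 363 and 216 TPM overlapped, whereas the other neighbours in this order were apart in both Th17 libraries. Lum and Crabp2 stood above 97.5% and 96.8% of the genes of the table by mean Th17 TPM, Epor above 45.2% and Ltbp3 above 32.2%. Dclk1, close to Crabp2 in CPM, lay lower per length because its annotated exons sum to 15296 bases, beside 1322 in Crabp2. This length joins the exons of all annotated transcripts of a gene, and the length of those present is not known. The order of Ermn and Dclk1 depends on it, since their Th17 means were 80.5 and 107 CPM.

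**Figure D3:**
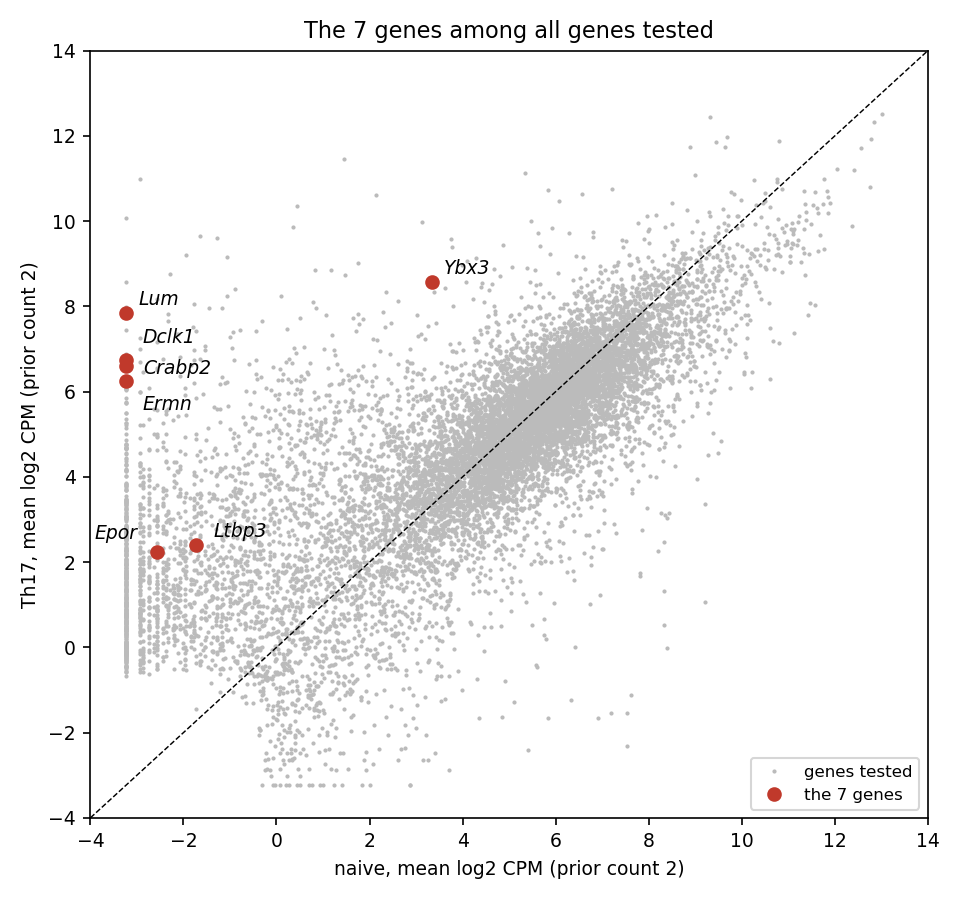
Mean log2 CPM in Th17 cells (vertical) against naive cells (horizontal) for the 11989 genes tested, in grey, and the 7 genes, in red, with a prior count of 2 and a dashed line of equal level. Lum, Crabp2, Dclk1 and Ermn sit on the left edge of genes with 0 naive reads, Epor and Ltbp3 low and near it, and Ybx3 further right at a log2 fold change of 5.26.

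A silent start with a high Th17 level was found in few genes. Of the 2854 genes with 0 naive reads, 261 had at least 1 CPM in both Th17 libraries, 60 had at least 10 CPM and 16 had at least 50 CPM. Lum, Crabp2, Dclk1 and Ermn were among the 16, at ranks 4, 13, 11 and 15 by mean Th17 CPM among the genes with 0 naive reads. The contrast that chose these genes also sets their ranks, so nothing is read from their place among the 16. Of the 2854 genes, 0 lacked a Th17 read, so all of them are in the table through Th17 reads. Rank 8 was held by Acsm2, with 0 CPM in Th17 library 1 and 267 CPM in library 2. By library 1 alone Lum, Crabp2, Ermn and Dclk1 held ranks 5, 9, 10 and 11.

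**Figure D4:**
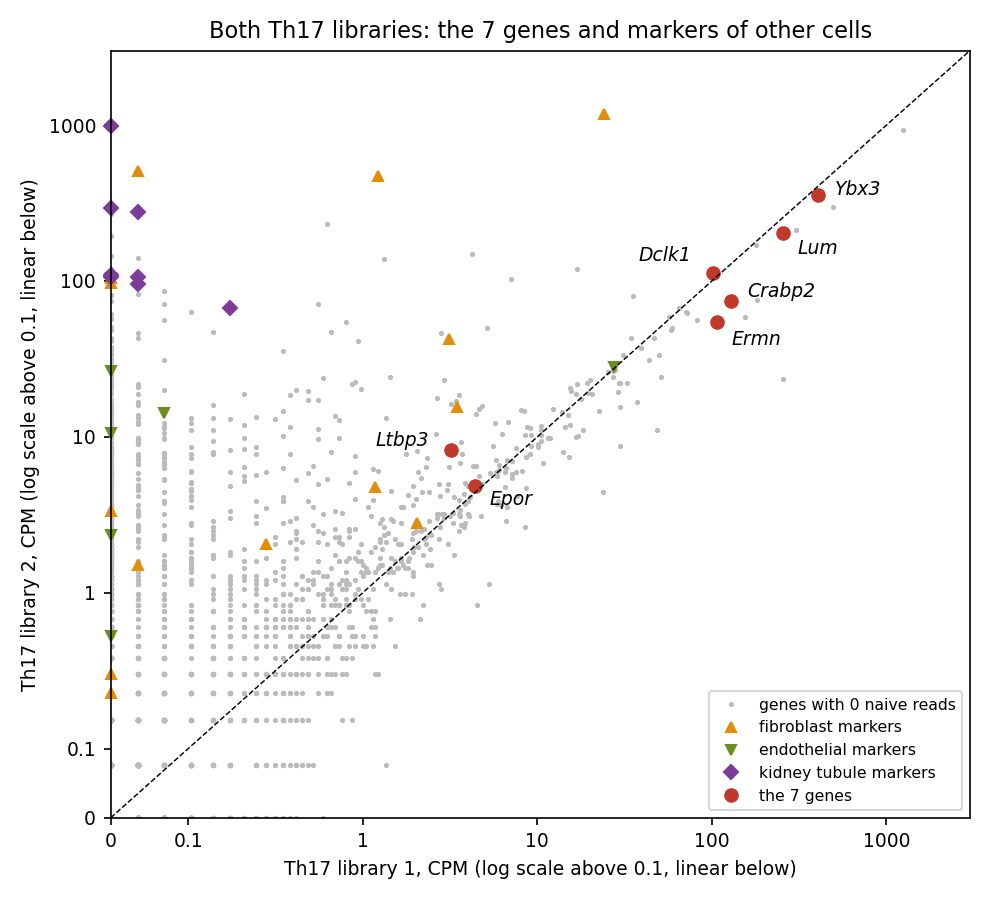
CPM in Th17 library 2 (vertical) against Th17 library 1 (horizontal) for genes with 0 naive reads, in grey, for markers of fibroblasts, endothelium and kidney tubule and for the 7 genes, in red, on axes that are logarithmic above 0.1 CPM and linear below. The kidney tubule markers lie on or near the left edge and high in library 2, and the fibroblast markers spread from low in both libraries to high in library 2. Crabp2 and Ermn lie below the dashed line of equal level, at 1.73 and 1.97 times as much in library 1, and Ltbp3 lies above it at 3.19 and 8.26 CPM.

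The genes most like each of the 7 were found by the Euclidean distance of log2 CPM over the 4 libraries, which were too few for a correlation. Upp1 was nearest to Lum at a distance of 0.26, followed by the stearoyl-CoA desaturase gene Scd1 at 0.57. The cytokine genes Il3 and Il24 were nearest to Crabp2, at 0.42 and 0.49, and both had more than 2 times as many CPM in Th17 library 1 as in library 2. Pdpn was nearest to Ermn at 0.10, with 101 and 56.2 CPM beside 107 and 54.2 CPM, and Slc17a6, a glutamate transporter gene, was next at 0.38. Perp and Crabp2 were nearest to Dclk1, at 0.64 and 0.68, and with a prior count of 0.5 they were Crabp2 and Galnt3. Ica1 and Fam217b were nearest to Epor, at 0.13 and 0.31, Ptk7 and Ctnnbip1 to Ltbp3, at 0.40 and 0.54, and the AP-1 gene Fosl2 and Serpinb6b to Ybx3, at 0.48 and 0.53.

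The 7 genes lie on 6 chromosomes, and the genes around them are given as a description of position, which did not choose the 7. Of the 28 nearest genes of the table, 2 on each side, 19 were tested, with 5 called higher and 8 lower in Th17 cells (26.3% and 42.1%, beside 34.3% and 30.7% of all genes). Their median log2 fold change was -0.09. Without naive library 1 or 2 the counts were 4 and 3 or 3 and 3, and without Th17 library 1 they were 9 and 8. Directly next to the 7 genes, 8 of 14 were tested. Dcn beside Lum and the kinase-like gene Styk1 beside Ybx3 were called higher, and Styk1 had 1.04 and 1.59 CPM in Th17 cells and 0.106 and 0 CPM in naive cells. Isg20l2 beside Crabp2 and Swsap1 beside Epor were called lower, at log2 fold changes of -0.44 (SE 0.16) and -1.40 (SE 0.32). With either naive library left out Styk1, Isg20l2 and Swsap1 lost their calls, and Isg20l2 also without Th17 library 2, at adjusted p values of 0.070 to 0.26 in edgeR's test. Cytip, which encodes a lymphocyte adaptor and lies 76.3 kb upstream of Ermn, had 1026 and 909 CPM in Th17 cells and 1006 and 1054 CPM in naive cells, at a log2 fold change of -0.09 (SE 0.18).

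Among the other direct neighbours, Atp2b1 beside Lum and Smim10l1 beside Ybx3 were tested and not called, at log2 fold changes of 0.51 and 0.04. Nes beside Crabp2, Ccdc169 and Nbea beside Dclk1, Galnt5 beside Ermn, Rgl3 beside Epor and the nearer of 2 overlapping genes named Sssca1 beside Ltbp3 did not pass the filter on low counts. How the reads of these 2 genes were split is uncertain. Nbea and Rgl3 had 0 reads in Th17 library 1 and 80 and 43 reads in Th17 library 2, and 0 in both naive libraries.

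Promoters of 5 of the 7 genes were in the RefSeq table, 6 promoters in all. Except for Ybx3 they were poor in CpG, with observed over expected ratios of 0.188 to 0.318, beside a median of 0.384 over all promoters. The loose AP-1 pattern TGANTCA, with any base at N, was found in the downstream Dclk1 promoter and in the Ltbp3 promoter. It was found in 7.81% of all promoters of the same length. The octamer was in the Ermn promoter and in 1.74% of all, the GATA motif in the Epor promoter and in 11.2% of all, and the GC box in the Epor and Ybx3 promoters and in 25.6% of all. The nuclear receptor core AGGTCA was found once, in the upstream Dclk1 promoter, and in 16.3% of all, while a STAT motif (TTCNNNGAA) and a TATA box (TATAAA) were found in 0 of the 6 and in 8.30% and 13.6% of all. Both strands were searched, and the motifs were chosen with the sequences in view. A match describes letters, not a site in use.

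None of the 7 genes had an RNA-edited site listed. The table of Th17 and naive cells held 869 sites and that of DDX5-deficient and wild-type Th17 cells held 355, with 0 inside any of the 7 genes in either. These sites named 349 and 143 genes, beside 16308 genes in the count table. Most genes thus had no listed site, and nothing is read from its lack in the 7. Coverage at unlisted positions is unknown, so editing there is not shown to be absent.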

How the data were processed

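Per the submitters' processing notes, reads were handled with STAR 2.6.1a, featureCounts and DESeq2 1.18.1 on mm10, and strand handling during counting is not given in the sources used here. The authors deposited counts per gene and library, a normalized signal (each count over 1 size factor per library) and a log2 fold change for Th17 relative to naive cells. The deposited editing tables give the fraction of edited reads per site.

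Counts were fitted with edgeR 4.0.16 in R 4.3.3 (filterByExpr, TMM, robust quasi-likelihood on group alone, two-sided, Benjamini-Hochberg over 11989 genes, called at an adjusted p under 0.05), and checked on simulated counts. SE is the log2 fold change over the root of the F statistic. Intervals are exact at 95%; they and the floor of 3 reads in each library cover counting error only. Identifiers matched GENCODE M21 for 16295 of 16308 genes. Alternatives were DESeq2 1.42.0, its size factors, other filters, a replicate block and leaving out each library.

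The genes, lists and motifs were chosen with earlier results of these data known. Named beside the 7 genes were the 2 nearest in pattern, up to 4 called genes of largest change per list, direct neighbours and the 2 highest markers per list. Some named genes are not reported here.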

Additional observations from a re-analysis of the deposited data

How the results depend on the processing

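In every alternative run, 70 values for the 7 genes in all, the fitted log2 fold change stayed positive. For Lum, Crabp2, Dclk1 and Ermn the fitted values ran from 11.56 to 15.37 and depend on the prior count, since these genes have 0 naive reads. Epor went to 9.44 without naive library 1, which holds its 3 naive reads. Ltbp3 ran from 3.89 to 5.25 and Ybx3 from 5.10 to 5.35. Leaving out 1 library at a time gave 2380 to 4847 genes called higher and 2567 to 3672 lower over all genes, 26 to 48 and 8 to 14 among the listed partner genes and 3 to 9 and 3 to 8 among the neighbouring genes, and the lowest counts of each came without a naive library. The lone library of a group is then assumed to vary like the other group. Among 76 named other genes, 683 alternative values kept their direction and side of the threshold in 585 cases, lost the call in 90, gained it in 7 and turned in 1, Smim10l1, whose log2 fold change ran from -0.12 without naive library 1 to 0.091 without naive library 2. DESeq2 called 8 neighbouring genes higher, against 5 by edgeR. With the replicate block 36 partner genes were higher and 14 lower, against 37 and 14 without it. The block followed the replicate numbers. In the labels library 2 of both groups carries the same identifier, whose meaning is not given, whereas the library 1 identifiers differ, so the labels do not support library 1 as a pair. The differences of library 1 from library 2 in the 2 groups had r = -0.08 across genes, and the number was not taken as a pairing. Ltbp3 and Epor rest on fewer than 130 reads per library, which limits their precision.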
